A study of Homo sapiens with 12 samples.

Results

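The series design sorts Cal27 cells into a class that acquired a memory of its conditioning (learned) and a class that did not acquire or keep it (not learned). Cal27 is an established line of human tongue squamous carcinoma, used here unmodified. The 2 classes take in all 12 of the 12 libraries of the series, 6 in each, and were formed from the labels alone. The learned class holds 3 libraries of cells conditioned on stiff gels of 20 kPa and replated on soft gels of 0.48 kPa (stiff-to-soft). It also holds 3 libraries of cells given lysophosphatidic acid (LPA) while conditioned on a soft gel, then replated on a soft gel (LPA-to-soft). The other class holds 3 libraries of untreated cells kept on soft gels throughout (soft-to-soft). Its remaining 3 libraries come from cells conditioned on soft gels with LPA, as in LPA-to-soft, but replated on soft gels with inhibition of focal adhesion kinase (LPA-to-FAKi). Conditioning lasted 5 days and the replating phase 1 day, all gels were polyacrylamide coated with collagen, and all 12 samples ended on soft gels. The labels give the inhibitor neither a name nor a dose, and each library a replicate number from 1 to 3 without saying what a number stands for. Replicates may therefore be technical, and each p-value rests on the spread among these samples alone.

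Mechanical memory is the persistence of a cell state after the substrate that induced it has been replaced. Integrins bind matrix proteins such as fibronectin and collagen, and focal adhesion kinase is recruited to their cytoplasmic side, where it passes adhesion signals on to the actin cytoskeleton and to growth control. LPA acts through G protein-coupled receptors and is well known for raising the contractility of cells. The comparison asks which genes mark cells that learned by either means.

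The class difference is the mean of stiff-to-soft minus soft-to-soft, called the stiff route here, and LPA-to-soft minus LPA-to-FAKi, called the LPA route. These routes share no library, so each gene has 2 separate readings of the class difference. Levels are CPM, the reads of a gene scaled to a library of fixed size, with TMM library scaling, which are not corrected for gene length, and differences are log2 fold changes with their standard error, learned minus not learned. A gene is called at a Benjamini-Hochberg adjusted p under 0.05 over the 15437 genes tested.

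Libraries held between 62953957 and 122311183 counts in total. Low counts, taken as 1 to 19, were nearly all even numbers in 10 libraries (96.8% to 97.8% of them). Soft-to-soft replicate 1, with 42.9% even, and replicate 2, with 42.2%, stand apart. Both belong to 1 condition of the class that had not learned, and so to the stiff route. Calls of the class models and routes, and the gene lists, were also refitted without this pair. The sums of squares, the correlation of the routes, the separated genes and the class by replicate number interaction were not. Epithelial markers, the defining genes of the labelled cell type, had a summed level, in CPM of the library total without TMM scaling, of 7282 to 11260 CPM in learned libraries and 7920 to 12380 CPM in the other. On the same scale fibroblast markers summed to 15.4 to 34.4 and 14.7 to 37.4 CPM. Leukocyte markers summed to 14.7 to 23.6 and 16.0 to 52.0 CPM, with CD3E and CD2 at 0 counts in all 12 libraries.

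Replicate number held the largest part of the spread between libraries, and class a smaller one. In the sums of squares of log2 CPM over all tested genes it took 47.2%, or 23.6% for each of its 2 degrees of freedom. Class took 7.22% on 1 degree of freedom. The difference between the learned conditions took 5.67% and that between soft-to-soft and LPA-to-FAKi took 9.62%, each on 1 degree of freedom, and the remainder 5.05% per degree of freedom. Class was the largest of these 3 differences for 5174 genes (33.5%), which is close to an even split among the 3. The difference between the learned conditions was the largest for 4243 (27.5%), and that between the other 2 conditions for 6020 (39.0%). The difference between the 2 conditions grouped as not learned thus took a larger part than class did. As median absolute log2 fold changes, both differences inside a class exceeded that between classes (0.0896). They were 0.114 between the learned conditions and 0.136 between the other 2. Each of these compares 3 libraries with 3, and class compares 6 with 6, so they carry more noise.

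**Figure D1:**
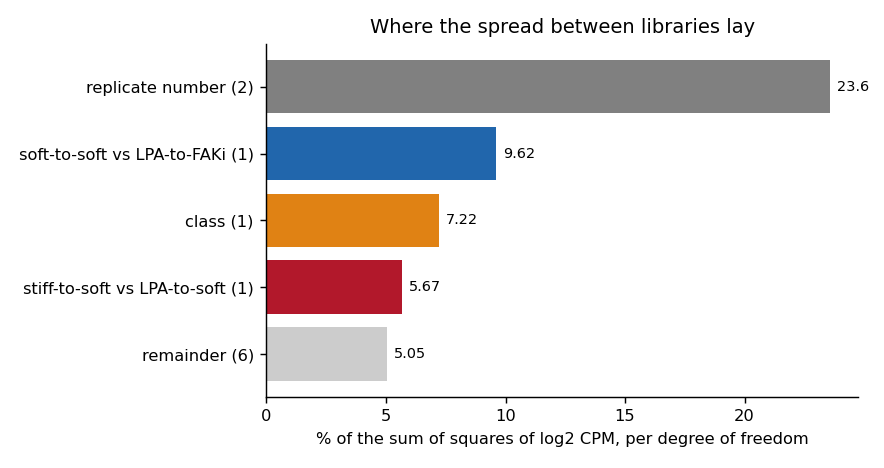
Percent of the sum of squares of log2 CPM over 15437 genes, per degree of freedom (x axis), for each part of the design (y axis, degrees of freedom in brackets). The bar for class, at 7.22%, lies between those for the 2 differences inside the classes, at 9.62% and 5.67%, and all are shorter than that for replicate number, at 23.6%.

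FN1, which encodes fibronectin, was the single gene that edgeR called in the 2-class model, where differences among conditions inside a class are part of the error. The edgeR quasi-likelihood test with replicate number as a block called it higher in the learned class by 0.80 ± 0.095 (adjusted p = 0.0259), and this 1 gene is 0.00648% of those tested. At an unadjusted p under 0.05 there were 1535 genes (9.94%), of which 792 were higher (5.13%) and 743 lower (4.81%). Without the block edgeR called 0 genes, with 446 (2.89%) at an unadjusted p under 0.05, and FN1 had an adjusted p of 1 there. With the block, FN1 had an adjusted p of 0.0299 in limma voom, 0.085 in voom with condition as a random effect and 0.579 in limma on the 4 condition means, at log2 fold changes of 0.78 to 0.79. DESeq2 with the block called 129 genes, FN1 among them at 0.80 (adjusted p = 1.12e-11). Class by replicate number interactions were called for 0 genes by edgeR, DESeq2 and limma voom, with 175 (1.13%) at an unadjusted p under 0.05 in edgeR.

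The FN1 level followed replicate number as well as class. In replicates 1, 2 and 3 it stood at 90.4, 173 and 248 CPM in the stiff-to-soft libraries and at 85.2, 133 and 187 CPM in LPA-to-soft. It stood at 50.6, 75.8 and 124 CPM in soft-to-soft and at 45.4, 90.1 and 155 CPM in LPA-to-FAKi. Across numbers the classes overlapped, but within each replicate number both learned libraries lay above both others, and the 2 classes were closest in number 3. The condition means were 170.2 ± 78.7 CPM for stiff-to-soft, 135 ± 50.8 for LPA-to-soft, 83.6 ± 37.5 for soft-to-soft and 96.8 ± 55.1 for LPA-to-FAKi (SD, n = 3). The stiff route gave 1.01 (adjusted p = 0.00384) and the LPA route 0.57 (adjusted p = 0.0752), and their difference of 0.43 was not called (adjusted p = 0.154).

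The FN1 call depended on which libraries entered. Leaving out 1 library at a time kept the log2 fold change between 0.74 and 0.86, but FN1 was called in 4 of 12 such fits, those without LPA-to-soft replicate 2, LPA-to-soft replicate 3, soft-to-soft replicate 1 or LPA-to-FAKi replicate 3. In the other 8 the adjusted p lay between 0.0549 (without LPA-to-FAKi replicate 1) and 0.155 (without stiff-to-soft replicate 3). Without both soft-to-soft replicates 1 and 2 FN1 stood at 0.76 (adjusted p = 0.0497).

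The promoter of FN1 is shown because FN1 is the gene that both class models called, together with that of SPRR2A, which stands for the squamous genes on the other side. They are the 250 bases before the RefSeq start of each gene, 5′ to 3′ on the gene's strand, from build GRCh38.p14, at chr2:215436069-215436318 and chr1:153057513-153057762, both on the minus strand. Capitals mark a cyclic AMP response element (TGACGTCA) whose first base lies 183 bases before the start and a CCAAT box 162 bases before it in FN1, and an AP-1 motif (TGANTCA) 197 bases before the start in SPRR2A.
FN1: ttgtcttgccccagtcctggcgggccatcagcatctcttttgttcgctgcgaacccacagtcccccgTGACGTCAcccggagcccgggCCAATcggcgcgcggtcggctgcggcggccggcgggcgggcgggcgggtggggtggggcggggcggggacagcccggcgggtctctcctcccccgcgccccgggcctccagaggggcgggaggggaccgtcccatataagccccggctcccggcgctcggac
SPRR2A: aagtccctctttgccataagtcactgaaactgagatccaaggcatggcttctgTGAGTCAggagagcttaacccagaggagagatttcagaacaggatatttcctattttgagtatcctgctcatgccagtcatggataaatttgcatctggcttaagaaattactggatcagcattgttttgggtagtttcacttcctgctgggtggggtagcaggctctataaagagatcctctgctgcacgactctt
Both strands were searched for these motifs, for the TEAD motif GGAATG and for the CArG box, with no overlap between the marked motifs. Of 35116 promoters of this length 1.65% hold TGACGTCA, 32% CCAAT, 6.57% TGANTCA, 11.9% GGAATG and 1.16% a CArG box, and neither FN1 nor SPRR2A holds either of the last 2 in this window. RefSeq promoters were matched for 6 of the 7 genes described next, all but THBD.

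When the 4 conditions were modelled apart and the mean of the learned conditions was set against the mean of the others, 7 genes were called (0.0453%), 2 higher (0.013%) and 5 lower (0.0324%). Here differences inside a class are not part of the error. The 2 higher genes, FN1 and TNS3, act at integrin adhesions. The 5 lower ones were the EGF receptor ligands EREG and HBEGF, the thrombin receptor thrombomodulin (THBD), the cornified envelope precursor SPRR2A and the airway-type serine protease TMPRSS11D. In 6 of the 7, all but THBD, both learned libraries stood on the same side of both others within every replicate number. Both routes had the same sign for all 7, and 6 of them had a difference between routes that was not called. A call on the mean of the routes favours like signs, so these counts describe the 7 and are no separate support for them.

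TNS3, a tensin that links integrins to actin, rose by 0.36 ± 0.047 in the contrast (adjusted p = 0.0295). Replicates 1, 2 and 3 stood at 267, 375 and 489.6 CPM in the stiff-to-soft libraries and 275, 356 and 474 CPM in LPA-to-soft, against 233, 292 and 388 CPM in soft-to-soft and 185, 285 and 371 CPM in LPA-to-FAKi. The 2 learned conditions stood close together within each number, and the lowest library was LPA-to-FAKi replicate 1. Its routes gave 0.30 and 0.42. In the 2-class model TNS3 stood at 0.35 ± 0.055 without being called (adjusted p = 0.174).

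EREG, which encodes epiregulin, fell by 0.39 ± 0.048 (adjusted p = 0.0246). It stood at 37.1, 29.8 and 32.8 CPM in the stiff-to-soft libraries and 46.6, 36.4 and 41.9 CPM in LPA-to-soft, against 48.1, 44.5 and 45.8 CPM in soft-to-soft and 56.1, 49.4 and 48.3 CPM in LPA-to-FAKi. Of the 4 conditions stiff-to-soft was lowest in every replicate number. HBEGF, the heparin-binding ligand of the same receptor, fell by 0.38 ± 0.05 (adjusted p = 0.0295). Its replicates 1, 2 and 3 stood at 92.7, 46.8 and 56.4 CPM in the stiff-to-soft libraries, 113, 60.3 and 62.7 CPM in LPA-to-soft, 134, 60.7 and 70.0 CPM in soft-to-soft and 141, 79.4 and 77.9 CPM in LPA-to-FAKi. In number 2 the LPA-to-soft and soft-to-soft libraries of HBEGF were nearly level. The third ligand, AREG (amphiregulin), lay at 1.36 to 2.51 CPM (median 1.85) in the learned class and 2.50 to 4.48 CPM (median 2.98) in the other, and at -0.69 was not called in the contrast (adjusted p = 0.103).

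THBD fell by 0.39 ± 0.038 in the contrast (adjusted p = 0.00387), the smallest standard error of the 7. It stood at 79.2, 64.1 and 54.2 CPM in the stiff-to-soft libraries, 111, 92.5 and 69.7 CPM in LPA-to-soft, 109.8, 92.1 and 73.2 CPM in soft-to-soft and 136, 109 and 91.2 CPM in LPA-to-FAKi. The LPA-to-soft and soft-to-soft libraries, from opposite classes, were level in each number, and the difference lay between stiff-to-soft at the bottom and LPA-to-FAKi at the top. Without stiff-to-soft the class difference of THBD was -0.17, and without LPA-to-FAKi -0.23.

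SPRR2A fell by 0.81 ± 0.108 (adjusted p = 0.0295). Its replicates 1, 2 and 3 stood at 45.4, 15.4 and 14.0 CPM in the stiff-to-soft libraries, 77.5, 30.6 and 25.3 CPM in LPA-to-soft, 81.0, 40.1 and 25.6 CPM in soft-to-soft and 143, 52.6 and 26.6 CPM in LPA-to-FAKi. In number 3 only stiff-to-soft stood apart from the rest. TMPRSS11D fell by 0.70 ± 0.098 (adjusted p = 0.0398) and is the exception among the 7, since its routes differed, at -1.22 in the stiff route and -0.18 in the LPA route (adjusted p of the difference 0.0459). It stood at 37.0, 8.33 and 6.82 CPM in soft-to-soft, its highest condition in each number. Reads of SPRR2A may be shared with near-identical copies.

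**Figure D2:**
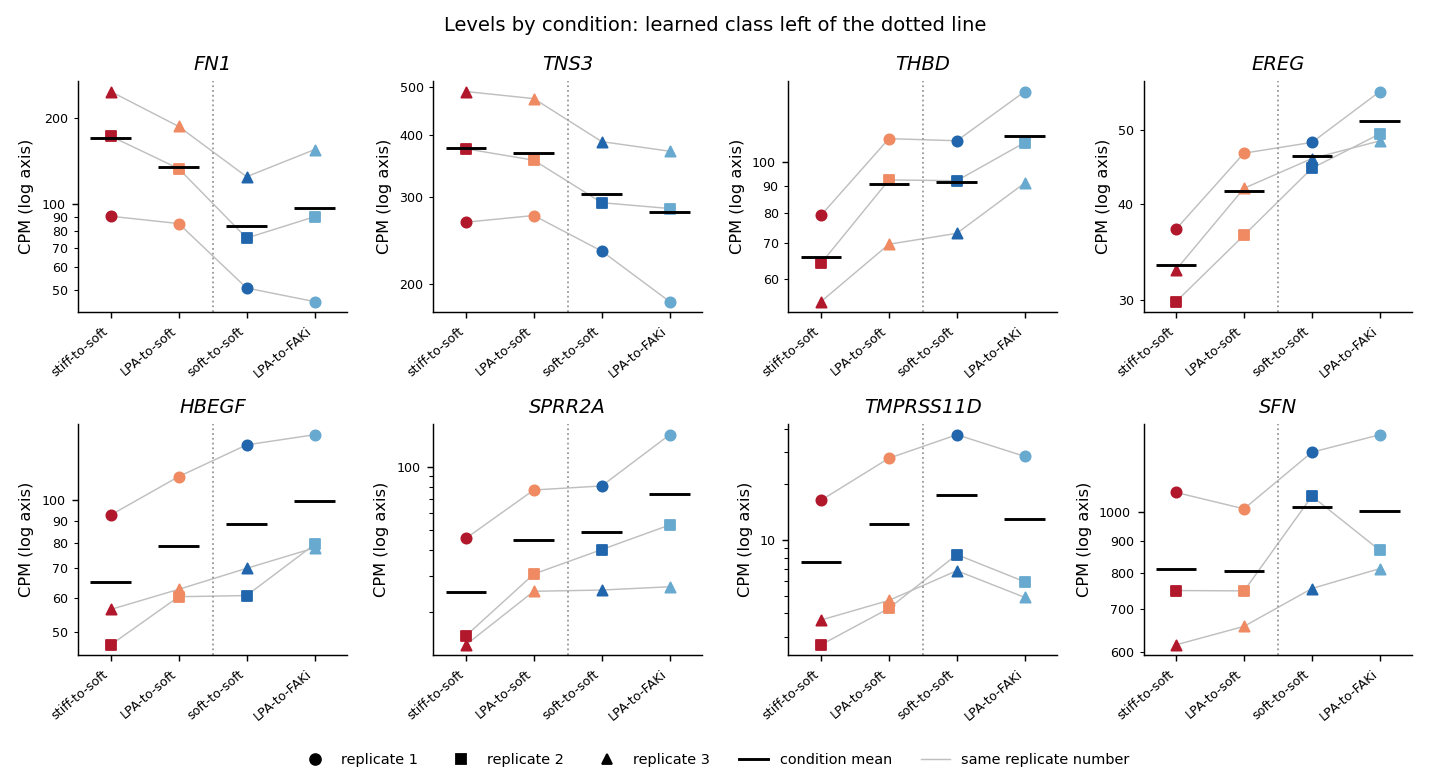
CPM on a log axis (y) in each of the 12 libraries by condition (x), for the 7 genes called in the contrast of 4 conditions and for SFN, the lower gene of smallest p in the 2-class model. Symbols give the replicate number, grey lines join libraries of the same number, bars are condition means, and the learned conditions stand left of the dotted line. The lines of FN1 and TNS3 step down across the dotted line in every replicate number, while those of THBD are level across it.

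These 7 calls also moved with the libraries used. Leaving out 1 library at a time gave between 2 and 37 calls, with 37 without soft-to-soft replicate 1, 22 without soft-to-soft replicate 2, 15 without LPA-to-FAKi replicate 3 and 11 without LPA-to-FAKi replicate 1. The count was 2 without stiff-to-soft replicate 2, LPA-to-soft replicate 3 or soft-to-soft replicate 3, and 3 without stiff-to-soft replicates 1 or 3, LPA-to-soft replicate 2 or LPA-to-FAKi replicate 2. It was 0 without both soft-to-soft replicates 1 and 2, which leaves 1 library of that condition, and 0 in edgeR without the replicate block.

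The genes of smallest p after FN1 and TNS3 are given as values, since none was called in the 2-class model. On the higher side stood the sulfate transporter SLC26A2 at 0.34 ± 0.058, xanthine dehydrogenase XDH at 0.49 ± 0.084, HEG1, a receptor of cell junctions, at 0.46 ± 0.081, and SVIL, the actin- and myosin-binding supervillin, at 0.32 ± 0.057. The DNA damage kinase ATM stood at 0.42 ± 0.076 and KIAA1109 at 0.42 ± 0.077. By library SVIL stood at 120.4, 115 and 116 CPM in the stiff-to-soft libraries and 109.8, 101 and 111 CPM in LPA-to-soft, against 99.7, 79.8 and 93.8 CPM in soft-to-soft and 84.0, 91.3 and 91.4 CPM in LPA-to-FAKi. The 6 learned libraries of SVIL all lay above the 6 others. XDH had condition means of 95.1 ± 9.42 and 80.5 ± 10.2 CPM in the learned conditions, and 62.9 ± 15.7 and 62.8 ± 8.72 CPM in soft-to-soft and LPA-to-FAKi (SD, n = 3).

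On the lower side the smallest p belonged to SFN, which encodes the epithelial 14-3-3 protein stratifin, at -0.32 ± 0.054 (adjusted p = 0.174). Its condition means were nearly equal inside each class, at 813 ± 236 and 806 ± 184 CPM in stiff-to-soft and LPA-to-soft and at 1020.5 ± 247 and 1003 ± 282 CPM in soft-to-soft and LPA-to-FAKi (SD, n = 3). Its routes gave -0.34 and -0.31, the closest to equal among the 16 genes named by smallest p apart from MIDN, at -0.32 and -0.30. MALL, a membrane protein of the MAL family, stood at -0.81 ± 0.144, the early response gene IER3 at -0.33 ± 0.064 and the homeobox gene PITX1 at -0.24 ± 0.048. SERPINB2, an inhibitor of plasminogen activators made by squamous cells, stood at -0.93 ± 0.191.

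A rule on order asked for both learned libraries above, or both below, both others in each of the 3 replicate numbers. It takes no account of size, so a gene carried mainly by 1 condition can meet it. ALG12 met it on the lower side, at -0.13 with all libraries and -0.03 without LPA-to-soft. The share that random order would give was not computed. It was met by 384 genes (2.49%), of which 229 were higher (1.48%) and 155 lower (1%). Among genes at a mean of 10 CPM or more the largest differences on the higher side were the epithelial chemokine CCL28 at 0.88, FN1 at 0.80, the kinase ALPK3 at 0.75, the cadherin CDH5 at 0.74 and the calcium channel TRPV6 at 0.72. CCL28 stood at 23.5 to 74.4 CPM (median 42.1) in the learned class and 7.98 to 44.8 CPM (median 22.4) in the other. ALPK3 stood at 13.8 to 21.8 CPM (median 16.6) and 6.29 to 12.8 CPM (median 10.3), and was the 1 gene of these 5 whose classes did not overlap across all libraries. CDH5 belongs to the endothelial markers, of which PECAM1 had 0 counts in 7 libraries, KDR, CLDN5 and EMCN in 11, TIE1 in 10 and TEK in 9. Without TMM scaling the summed endothelial markers lay at 11.6 to 37.7 CPM in learned libraries and 5.93 to 21.0 CPM in the other, and their part in the result was not tested.

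On the lower side the largest difference was that of SPRR3. This cornified envelope precursor of oral epithelium stood at 8.87, 2.04 and 0.788 CPM in the stiff-to-soft libraries, 6.61, 7.35 and 1.43 CPM in LPA-to-soft, 11.8, 25.0 and 1.92 CPM in soft-to-soft and 47.1, 14.8 and 3.22 CPM in LPA-to-FAKi, a difference of -1.77 ± 0.38. CEACAM6, a cell surface adhesion molecule, stood at -1.52 ± 0.352, the stress keratin KRT16 at -0.96 ± 0.232, SPRR2E at -0.95 ± 0.228 and SERPINB2 at -0.93. For CEACAM6 the learned class lay at 2.08 to 29.2 CPM (median 8.91) and the other at 4.99 to 144 CPM (median 32.1). The levels of SPRR3, CEACAM6 and KRT16 differed more between replicate numbers than between classes. Reads of KRT16 and SPRR2E may be shared with near-identical copies.

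The 2 routes were then compared gene by gene. Over 15437 genes, which are not independent replicates, their log2 fold changes correlated with a Pearson r of -0.075 and a Spearman rho of -0.106, and 6904 genes (44.7%) had the same sign in both. The other way of pairing the conditions, stiff-to-soft minus LPA-to-FAKi with LPA-to-soft minus soft-to-soft, gave a Pearson r of 0.036. The median absolute log2 fold change was 0.102 in the stiff route, 0.160 in the LPA route and 0.0896 for the class difference, their mean.

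The stiff route had 90 calls (0.583%), 37 higher (0.24%) and 53 lower (0.343%), and 1580 genes (10.2%) at an unadjusted p under 0.05. In the LPA route edgeR called 0 genes, although 3439 (22.3%) had an unadjusted p under 0.05, and 714 stood at an adjusted p between 0.0752 and 0.1. DESeq2 called 1231 there and limma voom 37, and edgeR called 639 without soft-to-soft replicate 2, 62 without LPA-to-FAKi replicate 3 and 202 without both soft-to-soft replicates 1 and 2. Soft-to-soft is no part of the LPA route, and enters its test through the model shared by all libraries. Of the 90 genes called in the stiff route, 28 had the same sign in the LPA route, 10 of them at an unadjusted p under 0.05, against 27 at such a p with the opposite sign. Of 455 genes at an unadjusted p under 0.05 in both routes, 28.8% of those in the stiff route and 13.2% of those in the LPA route, 169 had the same sign (101 higher and 68 lower) and 286 the opposite sign.

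The routes themselves differed for 118 genes (0.764%), of which 116 had opposite signs in the 2 routes. CSF2, which encodes the cytokine GM-CSF, had the smallest p, with 1.32 in the stiff route and -0.64 in the LPA route (adjusted p of the difference 0.00362). It stood at 26.2, 68.3 and 30.3 CPM in the stiff-to-soft libraries and 30.3, 58.7 and 21.4 CPM in LPA-to-FAKi, against 17.6, 36.0 and 16.4 CPM in LPA-to-soft and 11.5, 23.5 and 12.8 CPM in soft-to-soft. Its high conditions thus belong to opposite classes, and its class difference was 0.29 ± 0.29. The basal keratin gene KRT15 had -0.73 and 0.27 (adjusted p of the difference 0.00726). SNAI2, a transcription factor of epithelial-mesenchymal transition and of basal keratinocytes, had -0.67 and 0.45 (adjusted p = 0.0107). KRT15 and SNAI2 were highest in soft-to-soft, at 497 ± 286 and 69.8 ± 19.4 CPM (SD, n = 3).

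**Figure D3:**
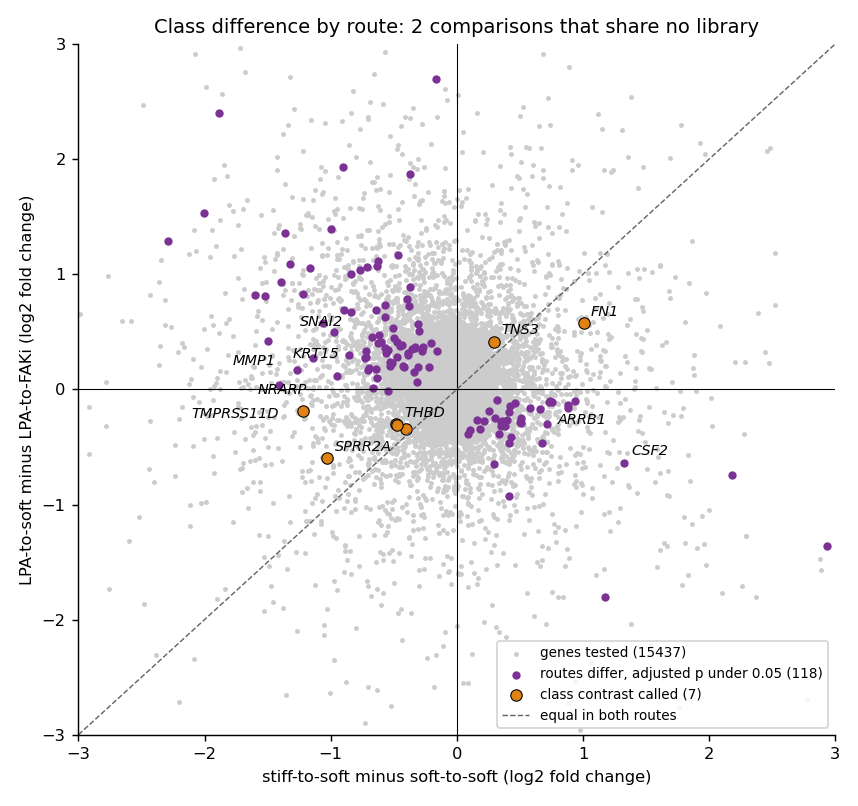
Log2 fold change in the stiff route (x) and the LPA route (y) for each tested gene, with 46 genes outside the range of -3 to 3 not shown. Purple points are the 118 genes whose routes differed, nearly all in the upper left and lower right where signs are opposite. Orange points are the 7 genes called in the class contrast, all in the upper right or lower left. Both placements are favoured by how the genes were chosen.

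With all 12 libraries, the count of calls inside the class that had not learned was larger than the count between classes. In the model of 4 conditions it was 87 against 7. This order reversed without soft-to-soft replicate 1, at 8 against 37, and without soft-to-soft replicate 3, at 0 against 2. It held without any other single library. In edgeR stiff-to-soft against LPA-to-soft had 1 call (0.00648%), THBD at -0.46 (adjusted p = 0.0496). Soft-to-soft against LPA-to-FAKi had 87 calls (0.564%), 63 higher in soft-to-soft (0.408%) and 24 lower (0.155%). THBD was among the 24, at -0.29 (adjusted p = 0.0431), so this gene of the class contrast was called inside both classes as well. The 87 became 307 without soft-to-soft replicate 2, 211 without LPA-to-FAKi replicate 3, 13 without LPA-to-FAKi replicate 1, 8 without soft-to-soft replicate 1 and 0 without soft-to-soft replicate 3. It was 49, 44, 30 and 28 without LPA-to-soft replicate 3, LPA-to-soft replicate 2, stiff-to-soft replicate 3 and LPA-to-FAKi replicate 2. The 90 calls of the stiff route were between 7 and 44 without stiff-to-soft replicates 2 or 3, LPA-to-soft replicates 2 or 3, any soft-to-soft library or LPA-to-FAKi replicate 2, and were 228 without LPA-to-FAKi replicate 1. The 118 calls of the route difference were 519 without soft-to-soft replicate 2, 283 without LPA-to-FAKi replicate 3, 74 and 58 without LPA-to-FAKi replicates 1 and 2, and between 1 and 22 without stiff-to-soft replicates 2 or 3, any LPA-to-soft library, or soft-to-soft replicates 1 or 3.

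Each condition was then left out of the 2-class model in turn. Without stiff-to-soft edgeR called 0 genes, with 1472 (9.66%) at an unadjusted p under 0.05, and without LPA-to-FAKi it called 0, with 1347 (8.79%). Without LPA-to-soft it called 1, FN1 at 0.93 (adjusted p = 0.0371), which is 0.00657%, with 956 (6.28%) at an unadjusted p under 0.05. Without soft-to-soft it called 153 (1%), 61 higher (0.399%) and 92 lower (0.602%). In that fit both learned conditions are set against LPA-to-FAKi alone, so it describes the distance of those 3 libraries from the 6 learned ones. MALL at -0.98 (adjusted p = 0.00782), FN1 at 0.73 (adjusted p = 0.0323) and TNS3 at 0.43 (adjusted p = 0.0169) were among the 153, as were SVIL, XDH, SFN, SERPINB2 and SPRR3. FN1 was lowest without stiff-to-soft, at 0.645 (adjusted p = 0.503), and 0.865 without LPA-to-FAKi (adjusted p = 0.0545).

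The genes whose class difference shrank most on leaving out a condition show what 1 condition can do to a class. They were chosen by that measure, at a mean of 5 CPM or more and an unadjusted p under 0.05, and are described without a test. SPARC, which encodes the matrix protein osteonectin, stood at 302, 770.2 and 892 CPM in the stiff-to-soft libraries, above the other 3 conditions in each number. In number 1 the gap was small, with LPA-to-soft at 298 CPM and soft-to-soft at 279 CPM. The class difference of SPARC, 0.32, became 0.05 without stiff-to-soft. The arrestin gene ARRB1 (0.32 to 0.04) and the carboxypeptidase gene CPZ (0.39 to 0.05) were of the same kind. LPA-to-soft carried the kinase gene HIPK3, at 87.8, 69.7 and 68.6 CPM there with a class difference of 0.18 that became 0.04, and C10orf118 and the mannosyltransferase gene ALG12 with it.

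Soft-to-soft carried 3 genes on the lower side. The interstitial collagenase MMP1 stood at 87.3, 38.9 and 38.7 CPM in soft-to-soft, against 54.4, 10.8 and 16.2 CPM in the stiff-to-soft libraries, 45.0, 13.3 and 20.1 CPM in LPA-to-soft and 47.2, 11.1 and 16.2 CPM in LPA-to-FAKi. The other 3 conditions were thus nearly level, and the class difference of -0.69 was 0.12 without soft-to-soft. NRARP, a feedback inhibitor of Notch signalling, went from -0.45 to -0.05, and MIR22HG from -0.32 to 0.004. LPA-to-FAKi carried CD68, a lysosomal glycoprotein known as a macrophage marker, at 41.9, 29.4 and 15.0 CPM there and 9.49 to 17.0 CPM in the other 9 libraries. Its class difference of -0.65 became -0.01 without that condition, and the monoacylglycerol lipase gene MGLL (-0.42 to -0.03) and PAQR5 (-0.42 to -0.05) followed it. The leukocyte markers CD3E and CD2 were at 0 in all libraries, and CD14, CSF1R and ITGAM had class differences of -0.11, -0.05 and 0.32. In LPA-to-FAKi CSF1R stood at 2.85, 1.94 and 1.03 CPM, against 0.621 to 1.85 CPM in the other 9 libraries. CD14 stood at 4.10, 1.51 and 3.53 CPM in LPA-to-FAKi, inside its range elsewhere, and ITGAM at 1.31, 1.91 and 1.80 CPM. The part of leukocyte markers in the CD68 value was not tested.

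**Figure D4:**
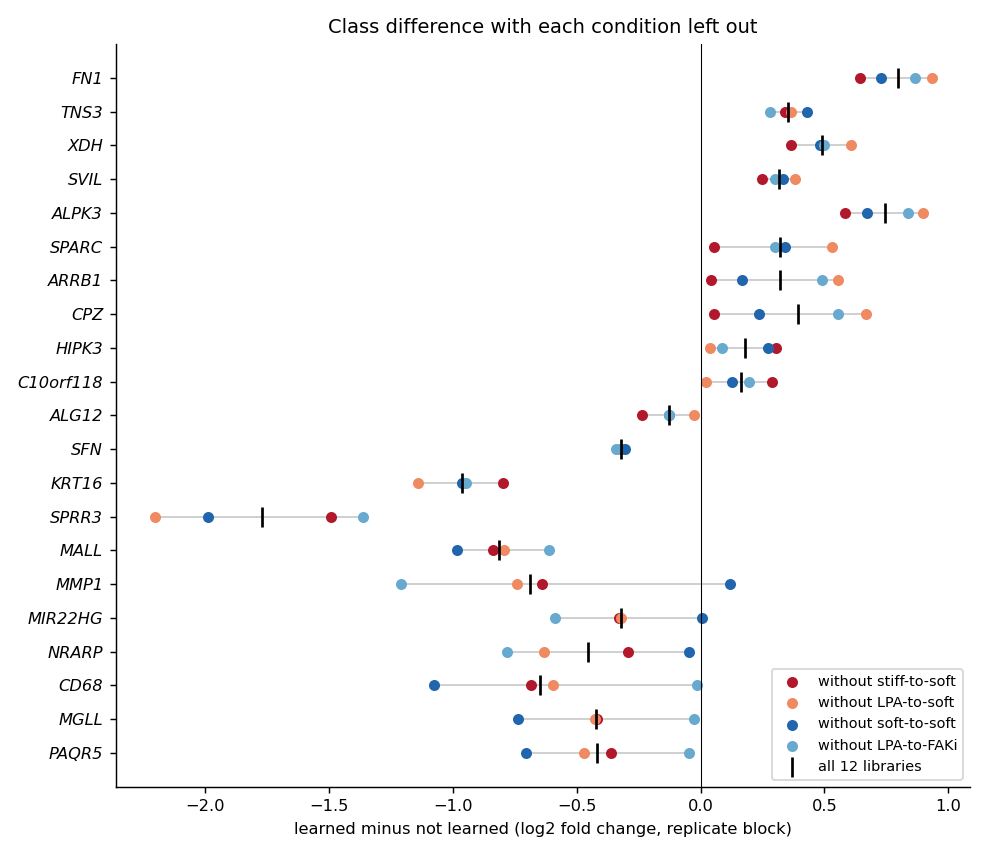
Class difference (x, log2 fold change from the 2-class model with the replicate block) of 21 genes (y) with all 12 libraries (black bar) and with each condition left out (coloured points). FN1, TNS3, SVIL and SFN keep their side and much of their size in all 4 fits, while SPARC, HIPK3, MMP1 and CD68 each approach 0 in 1 of them, MMP1 crossing to 0.12.

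Gene lists were described by counts and medians, with no set test. Over all tested genes 48.1% had a positive class difference, with a median of -0.0057, and 5.13% were higher and 4.81% lower at an unadjusted p under 0.05. Members are counted below at that p in the 2-class model, where FN1 alone was called. The lists were refitted without soft-to-soft replicate 2, LPA-to-FAKi replicate 1 or LPA-to-soft replicate 1, without soft-to-soft replicates 1 and 2, and without each condition. Without soft-to-soft replicates 1 and 2 the median was 0.29 for NF-kB and cytokine, 0.18 for interferon and 0.14 for G2 and M phase genes. It was -0.0995 for S phase, 0.12 for hypoxia and glycolysis, 0.13 for cholesterol and fatty acid synthesis and -0.11 for mitochondrially encoded genes. Focal adhesion genes stood at 0.014 and contractility genes at 0.046.

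With all 12 libraries, genes of adhesion, matrix and contraction held more members higher at the unadjusted p than the 5.13% of all genes. Of 36 extracellular matrix genes 25 were positive (median 0.13), with 6 higher (16.7%) and 1 lower, and after FN1 came the basement membrane genes HSPG2 at 0.43 ± 0.146 and COL4A1 at 0.21 ± 0.079 and the crosslinking enzyme LOXL2 at 0.43 ± 0.147. Without LPA-to-FAKi the matrix median was 0.0081 with 18 positive and 18 negative, and it was 0.053 without replicate 1 of that condition, 0.082 without LPA-to-soft replicate 1 and 0.22 without soft-to-soft replicates 1 and 2. Of 41 focal adhesion and FAK signalling genes 24 were positive (median 0.027), with 8 higher (19.5%), among them the integrins ITGAV at 0.34 ± 0.086 and ITGB8 at 0.24 ± 0.072 and the adhesion protein LPP at 0.39 ± 0.097, and 2 lower. PTK2, which encodes FAK itself, the target of the inhibitor, stood at 52.1 ± 2.28 CPM in learned libraries and 48.4 ± 4.11 CPM in the other (SD, n = 6), a difference of 0.11 ± 0.044 (adjusted p = 0.452). Of 35 contractility and actomyosin genes 21 were positive (median 0.029), with 5 higher (14.3%) and 0 lower. Without soft-to-soft the focal adhesion list had 6 higher and 7 lower and the contractility list 9 and 4. Over all 15437 genes that fit had 1476 higher and 1421 lower. Without LPA-to-FAKi the focal adhesion list had 7 higher and 2 lower and the contractility list 2 and 2. Over all genes that fit had 599 higher and 748 lower. The non-muscle myosin heavy chains MYH9 and MYH10 stood at 0.15 ± 0.062 and 0.17 ± 0.066.

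Transcriptional readouts of tension differed by list. Of 26 YAP/TAZ targets 16 were positive (median 0.017), with 5 higher (19.2%) and 2 lower (7.69%). The share higher was close to that of the focal adhesion list (19.5%). PTPN14 stood at 0.30 ± 0.077 and MYOF at 0.15 ± 0.05, both separated in every replicate number, and NUAK2 at -0.16 ± 0.057 was separated the other way. CTGF, the most used of these readouts, stood at 80.9, 85.1 and 282 CPM in the stiff-to-soft libraries, 176, 89.1 and 269 CPM in LPA-to-soft, 122, 109 and 329 CPM in soft-to-soft and 60.1, 58.8 and 231 CPM in LPA-to-FAKi. Its class difference of 0.18 ± 0.222 had an adjusted p of 0.805 and joined -0.38 in the stiff route to 0.82 in the LPA route. Of 22 SRF/MRTF targets 10 were positive (median -0.028), with 2 higher and 3 lower, but 12 were positive (median 0.0019) without soft-to-soft replicate 2.

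Squamous differentiation genes were the list farthest below the background. Of 54 tested 44 were negative (median -0.52), with 22 lower (40.7%) and 2 higher (3.7%), and SPRR2A and TMPRSS11D were called in the contrast. SPRR2D stood at -0.75 ± 0.158 with nearly equal routes of -0.73 and -0.76. The medians of the list by route were -0.74 and -0.20. With each condition left out in turn its median stayed between -0.73 and -0.30 and 38 to 45 members were negative, the weakest without soft-to-soft. Without soft-to-soft replicates 1 and 2 the median was -0.32 with 39 negative, and without replicate 2 alone it was -0.32 with 44. Relative to the mean of its number the list stood at -0.25, -0.58 and -0.20 in stiff-to-soft replicates 1, 2 and 3 and at -0.23, -0.05 and 0.01 in LPA-to-soft. It stood at 0.23, 0.60 and 0.23 in soft-to-soft and at 0.25, 0.02 and -0.05 in LPA-to-FAKi, so in number 3 LPA-to-soft lay above LPA-to-FAKi. Of 27 genes on the basal keratinocyte list 25 were negative (median -0.16), with 6 lower. Among the 6 were KRT17 at -0.48 ± 0.105 and KRT6A at -0.81 ± 0.182, keratins with near-identical copies. These 2 are stress keratins, as KRT16 is, and do not mark basal cells as such. The basal keratin gene KRT15 stood at -0.24 ± 0.151 and was not called. The basal list had route medians of -0.38 and 0.066, and 17 of 27 negative without soft-to-soft.

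Among genes that respond to growth factors, more were negative than positive. Of 42 immediate early genes 38 were negative (median -0.20), with 11 lower (26.2%) and 0 higher, KLF4 at -0.27 ± 0.058 and FOSL1, an AP-1 subunit, at -0.59 ± 0.145 among them. Their route medians were -0.41 and 0.089. Without soft-to-soft 21 were positive and 21 negative (median 0.0079), and without its replicates 1 and 2 the count was 12 and 30 (median -0.062). Of 14 genes of the EGF receptor family and its ligands 9 were negative (median -0.11), with 5 lower and 1 higher, and EREG and HBEGF were called in the contrast. The route medians of this list were -0.18 and -0.034, and its median was -0.055 without soft-to-soft replicate 2 and -0.018 without replicates 1 and 2.

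NF-kB and cytokine genes had the highest median of the lists, those of cell type markers left aside. Of 41 tested 37 were positive (median 0.30), with 13 higher (31.7%) and 0 lower, and none was called with all libraries. Route medians were 0.25 and 0.37. CSF1, a macrophage growth factor, stood at 0.44 ± 0.114, the acute phase gene SAA1 at 0.51 ± 0.152, the superoxide dismutase gene SOD2 at 0.48 ± 0.147 and the chemokine CCL2 at 0.67 ± 0.218. Relative to the mean of the 4 libraries of its number, the list stood at 0.05, 0.42 and 0.16 on the log2 scale in stiff-to-soft replicates 1, 2 and 3 and at 0.27, 0.14 and -0.03 in LPA-to-soft. It stood at 0.18, -0.55 and 0.01 in soft-to-soft and -0.50, -0.02 and -0.14 in LPA-to-FAKi, so 1 library was low in each of these conditions. The median was 0.18 with 34 positive without LPA-to-soft replicate 1, 0.20 with 33 positive without soft-to-soft replicate 2, and 0.25 with 33 positive without LPA-to-FAKi replicate 1.

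Interferon response genes were positive in 41 of 51 cases (median 0.072), with 1 higher, PARP14 at 0.35 ± 0.111, and 0 lower. The routes went opposite ways, with medians of -0.27 and 0.46, and without LPA-to-FAKi 47 of the 51 were negative (median -0.18). Without LPA-to-FAKi replicate 1 the median was -0.0039, and without LPA-to-soft replicate 1 it was 0.043. Proliferation genes differed in sign by phase. Of 41 S phase genes 36 were negative (median -0.094), with 3 lower, CDT1 at -0.22 ± 0.087 among them, and 30 were negative (median -0.063) without LPA-to-soft replicate 1. The route medians of S phase genes were -0.0060 in the stiff route and -0.14 in the LPA route. Of 36 G2 and M phase genes 30 were positive (median 0.058), with CENPF at 0.30 ± 0.093 and MKI67 at 0.29 ± 0.098 higher at the unadjusted p, but 14 were positive and 22 negative (median -0.026) without LPA-to-FAKi replicate 1. Their route medians were -0.018 and 0.15, and without the condition LPA-to-FAKi 28 were negative (median -0.036).

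Metabolic lists differed by small amounts. Of 39 hypoxia and glycolysis genes 32 were positive (median 0.10), with ERO1L at 0.27 ± 0.096 and DDIT4 at 0.47 ± 0.188 among 4 higher and 1 lower. Without LPA-to-soft replicate 1, at 0.55 above the mean of its number, 25 were positive (median 0.034). Of 34 cholesterol and fatty acid synthesis genes 30 were positive (median 0.11), with ACACA, the first enzyme committed to fatty acid synthesis, at 0.23 ± 0.06 among 2 higher. Without LPA-to-soft replicate 1, at 0.31 above the mean of its number, 23 were positive (median 0.054). All 13 mitochondrially encoded genes tested were negative (median -0.16), with ND2 at -0.19 ± 0.084 among 2 lower. Without soft-to-soft 9 of the 13 were negative (median -0.034).

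**Figure D5:**
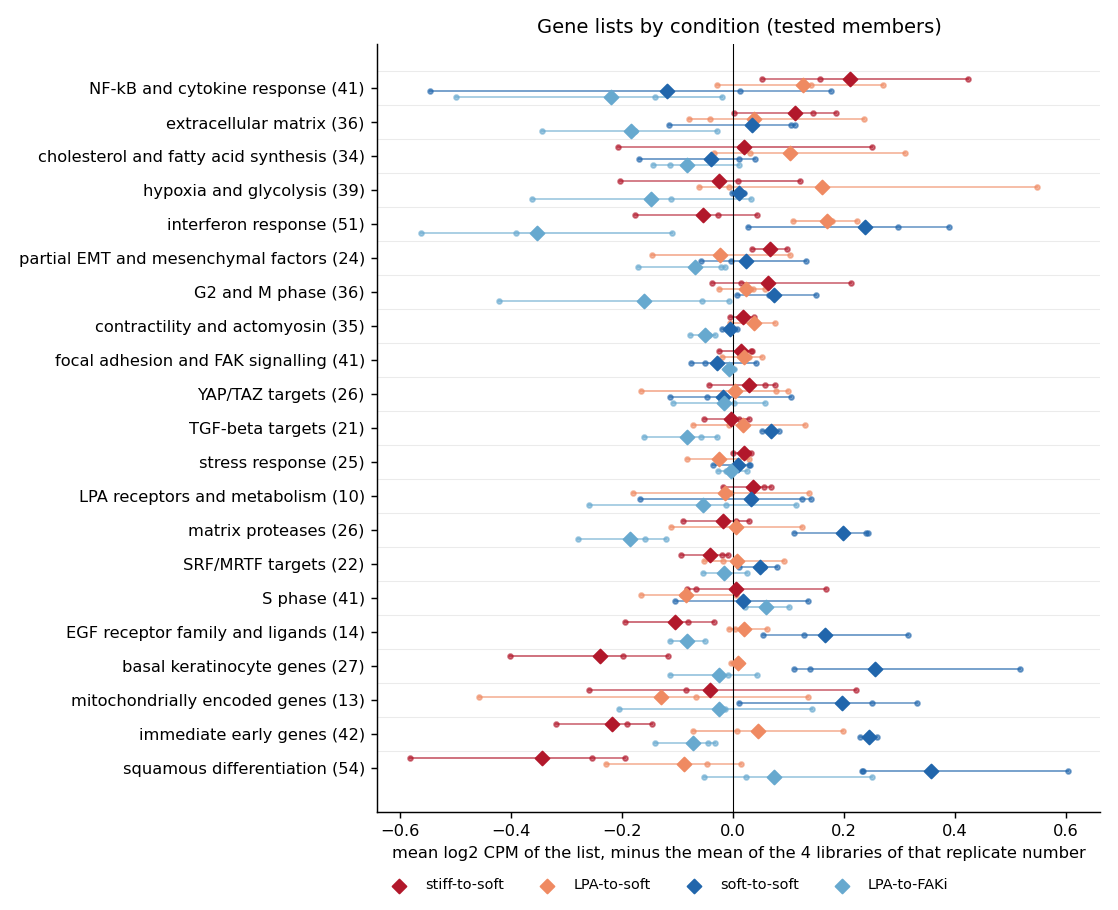
Mean log2 CPM of each gene list (y, tested members in brackets) minus the mean of the 4 libraries of the same replicate number (x), by condition. Small points are libraries and diamonds condition means. Squamous differentiation, at the bottom, has the means of both learned conditions left of those of both others, though in replicate number 3 the LPA-to-soft point lies right of the LPA-to-FAKi point, while immediate early and interferon genes have the conditions of a class on opposite sides of 0.

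Genes higher and genes lower in the learned class differed in transcript length and GC content. Genes higher at an unadjusted p under 0.05 had a median transcript length of 5826 bases and a GC content of 44.05%, and those lower 2653 bases and 56.94%, against 3216 bases and 49.27% for all genes matched to the annotation. By library, the genes of the longest 1 in 4 transcripts stood 0.113, 0.107 and 0.0938 above those of the shortest 1 in 4 on the log2 scale in LPA-to-soft replicates 1, 2 and 3, after centring within replicate number. The other learned condition, stiff-to-soft, stood at 0.0101, -0.0627 and -0.00647, close to soft-to-soft at -0.0276, -0.0288 and -0.0158. LPA-to-FAKi stood at -0.0959, -0.023 and -0.0715. The length shift thus lay mainly in the LPA route, and stiff-to-soft replicate 2 was below every soft-to-soft library. With an offset for length and GC content, chosen after the data were seen, FN1 stood at 0.73 (adjusted p = 0.2), edgeR called 0 of 14267 genes, and 1211 had an unadjusted p under 0.05. The part of length and GC content in the class difference was not tested beyond this offset.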

How the data were processed

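Gene counts were deposited by the authors as whole reads per gene symbol, and the tools listed in the submitters' processing notes are STAR, HTSeq, DESeq2, cutadapt and FastQC, with hg19 as the build. For tool versions, annotation and strand setting the entry is: not given in the sources used here. For that reason overlapping and antisense genes may share reads. Per the labels' protocols RNA was extracted with RNeasy columns and made into TruSeq Stranded libraries. The authors' normalized table was not used. Of 25382 symbols, 5880 had no count, and 28 that a spreadsheet had turned into dates hold 0.178% of counts.

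Counts were filtered with filterByExpr over the 4 conditions, scaled by TMM and tested in edgeR 4.0.16 (R 4.3.3) with quasi-likelihood F tests and Benjamini-Hochberg adjustment over 15437 genes, and log2 CPM used a prior count of 2. DESeq2 1.42.0 and limma 3.58.1 were alternatives. Replicate number is a block in both class models. The labels do not say what a number marks, but deviations from condition means correlated at 0.312 to 0.659 in all 18 pairs of the same number, and at -0.517 to 0.0372 in 36 pairs of different number and condition, so the numbers were taken to pair the samples. Scripts were tested on simulated data.

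Named genes were the genes called, the 8 of smallest p per direction, the 5 largest separated genes per direction, the 3 per condition that shrink most without it, the 3 of smallest p for the route difference, and up to 4 per gene list, with FN1, PTK2, MYH9, MYH10 and CTGF. Some items that the rule names are not reported here. The members, gene lists and rules were chosen with earlier results of these data known. Promoters came from RefSeq. Transcript lengths came from GENCODE models, matched by symbol for 92.42% of genes. The length and GC offset, the gene list refits, some left-out libraries and DESeq2 and voom for the routes were added after seeing the data.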

Additional observations from a re-analysis of the deposited data

Results flagged for a closer look

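For 8 of 80 genes followed, 7 of the 8 named above, the routes differed by a test of the difference itself (edgeR quasi-likelihood test, adjusted p under 0.05). Over all 15437 genes this test called 118 (0.764%). CSF2, KRT15 and SNAI2 were named because of this same test, and ARRB1, MMP1 and NRARP because 1 condition carried them. The count of 8 therefore reflects how the genes were chosen. The stiff route minus the LPA route was 1.96 on the log2 scale for CSF2 and 0.8401 for ARRB1. It was -1.433 for MMP1, -1.123 for SNAI2, -1.069 for NRARP, -1.034 for TMPRSS11D, -1.004 for KRT15 and -0.6747 for the desmosomal cadherin DSG3. TMPRSS11D is among the 7 genes called in the class contrast.

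In 4 of 160 groups of 6 libraries, 1 library stood far from the rest of its class by Dixon's criterion, and chance alone flags about 1 in 20 groups. All 4 were LPA-to-FAKi replicate 1, high against the other 5 libraries of the class that had not learned. AREG stood at 4.479 CPM there against 2.502 to 3.099 CPM, and CEACAM6 at 144 CPM against 4.987 to 33.28 CPM. SPRR2E stood at 64.95 CPM against 9.222 to 29.95 CPM, and KRT6B, a keratin with near-identical copies, at 305.3 CPM against 60.6 to 146.5 CPM.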

How the results depend on the processing

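Of 80 genes followed through up to 31 alternatives of the 2-class model, 74 never changed sign. Most of the 80 were named for a small p, a call or separation in these data, and most alternatives share nearly all libraries. A steady sign was therefore likely from the start, and no such count was made over all genes tested. CTGF ranged from -0.028 (without LPA-to-soft replicate 1) to 0.32 (without soft-to-soft replicate 2) without 1 library, and was -0.047 without LPA-to-soft and -0.17 without LPA-to-FAKi. CSF2 was -0.17 without stiff-to-soft, -0.18 without soft-to-soft and -0.000986 without soft-to-soft replicates 1 and 2, and SNAI2 was 0.0066, 0.30 and 0.098 in the same 3 fits. Without soft-to-soft MMP1 was 0.12, MIR22HG 0.0040 and KRT15 0.065. Counts of calls moved far more. With no replicate block, edgeR called 0 genes in the 2-class model, the class contrast, both differences inside the classes, both routes and the route difference. The 1 call of the 2-class model was 7 in the contrast of 4 conditions, 129 in DESeq2, 4 without soft-to-soft replicates 1 and 2 and 153 without soft-to-soft. It was 0 in voom with a random effect of condition, in limma on condition means, without stiff-to-soft, without LPA-to-FAKi, without the 4 libraries of any 1 replicate number, and with the length and GC offset, and 0 to 4 without 1 library. The class contrast (7) gave 41 with no low-count filter, 343 in DESeq2, 32 in voom, 0 without soft-to-soft replicates 1 and 2, and 2 to 37 without 1 library. Stiff-to-soft against LPA-to-soft (1) gave 66 in DESeq2 and 0 to 3 without 1 library. Soft-to-soft against LPA-to-FAKi (87) gave 704 in DESeq2, 176 in voom, 0 without soft-to-soft replicates 1 and 2, and 0 to 307 without 1 library. The stiff route (90) gave 443 in DESeq2, 0 without soft-to-soft replicates 1 and 2, and 7 to 228 without 1 library. The LPA route (0) gave 1231 in DESeq2, 37 in voom, 202 without soft-to-soft replicates 1 and 2, and 0 to 639 without 1 library. The route difference (118) gave 897 in DESeq2, 292 in voom, 0 without soft-to-soft replicates 1 and 2, and 1 to 519 without 1 library. Genes separated in every replicate number (384) were 514 to 976 without 1 library, where fewer libraries make the rule easier to meet. The cause of the other changes was not tested.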
